A study of Homo sapiens with 6 samples.

Results

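Translation initiation factor (EIF) genes were described as a family in TE-1 cells, a line of esophageal squamous cell carcinoma (ESCC) cells. The members are the genes whose symbol begins with EIF and a number from 1 to 6, without hyphen-joined read-through names. These were 52 of the 12180 listed protein-coding genes, with 194 of the 33090 listed protein-coding transcripts. The NC group (3 libraries, genotype given as WT in the labels) was compared with the FGL1-OE group (3 libraries, lentiviral overexpression of FGL1, a secreted fibrinogen-like protein). The study's methods describe a negative-control lentivirus (NC) and stable lines selected with puromycin after infection. They do not say whether the sequenced control was that line or uninfected cells. If it was uninfected, infection and selection could not be told apart from FGL1 overexpression. Nothing in the labels says whether replicates were separate cultures, so the p-values measure the spread between these libraries only.

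Translation initiation brings the initiator tRNA and the small ribosomal subunit to the start codon of an mRNA. eIF2 carries the initiator tRNA as a complex with GTP, and eIF3 binds the small subunit and links it to the eIF4 factors. The eIF4 factors bind the cap and unwind the 5′ end. eIF1, eIF1A, eIF5 and eIF5B set the start codon and let the large subunit join. Cells slow initiation by phosphorylating the alpha subunit of eIF2 or by freeing eIF4E-binding proteins that hold eIF4E, and these steps are known to be altered in many carcinomas.

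Expression is given as FPKM, fragment counts scaled for transcript length and sequencing depth, and the read depth behind the values is unknown. FGL1 was 0.0202, 0 and 0.106 FPKM in NC 1, NC 2 and NC 3 and 33.5, 39.3 and 39.9 FPKM in FGL1-OE 1, FGL1-OE 2 and FGL1-OE 3, which matched the labels. Its difference was 5.21 ± 0.15 (SE) on the log2(FPKM + 1) scale (limma, adjusted p = 1.29e-05). It was the 1 gene of the 12017 tested with an adjusted p under 0.05. Of the marker lists, 4 of 4 simple and 7 of 8 squamous epithelial genes were listed (KRT14 was not), 3 of 6 fibroblast genes were listed with a sum of 2.29 to 8.27 FPKM in a library, and 1 of 5 leukocyte and 0 of 3 endothelial genes were listed. The simple epithelial genes KRT8 and KRT18 averaged 334 and 414 FPKM. The squamous genes ranged from SFN (328 FPKM) and KRT6A (163 FPKM) down to KRT5 (5.25 FPKM) and TP63 (0.475 FPKM). These are bulk libraries, in which fewer cells of a type and less RNA per cell cannot be told apart. The EIF genes took between 0.888% and 0.965% of the summed FPKM of all listed genes in a library.

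The EIF genes were expressed over a wide range. FPKM is a level per length, so genes can be compared. Levels are those of the gene table unless the transcript table is named, and the tables differed: the listed transcripts of a gene added gave 0.422 (EIF4A2) to 4.65 (EIF4E2) times its gene value, with a median of 1.83, and 31 of the 52 genes were over 1.5 times apart. EIF5A, the hypusinated factor that helps the ribosome past difficult peptide bonds, was the most abundant at a mean of 143 FPKM over the 6 libraries, and EIF4E3, a cap-binding paralogue, was the least abundant at 0.582 FPKM, and both held these ranks in the transcript table. In 16 of the 52 genes the mean was above 50 FPKM, and in 8 it was below 5 FPKM. By the number in the symbol, the EIF3 genes summed highest in every library, at 682, 646 and 749.6 FPKM in the NC libraries and 735, 693 and 718 FPKM in the FGL1-OE libraries. The EIF4 genes followed at 491, 597 and 545 FPKM in the NC libraries and 555, 582 and 569 FPKM in the FGL1-OE libraries. The EIF2 genes, kinases and exchange factor included, gave 286, 425 and 367 FPKM in the NC libraries and 384, 416 and 406 FPKM in the FGL1-OE libraries. These 3 sums kept their order in each library. In the transcript table the order of these 3 sums was the same in each library. The EIF5 genes lay lower at 207, 176 and 193 FPKM in the NC libraries and 211, 191 and 189.5 FPKM in the FGL1-OE libraries, although in the transcript table they exceeded the EIF2 genes in NC 1 (412 against 385 FPKM). The EIF1 genes (76.2, 109.7 and 91.0 FPKM in the NC libraries and 118, 105 and 105 FPKM in the FGL1-OE libraries) and EIF6 overlapped in their range, so their order did not exceed the spread. The sums hold 14 EIF3, 15 EIF4, 14 EIF2, 4 EIF5, 4 EIF1 and 1 EIF6 genes. Their order therefore depends also on the number of genes and is not an order per gene.

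**Figure D1:**
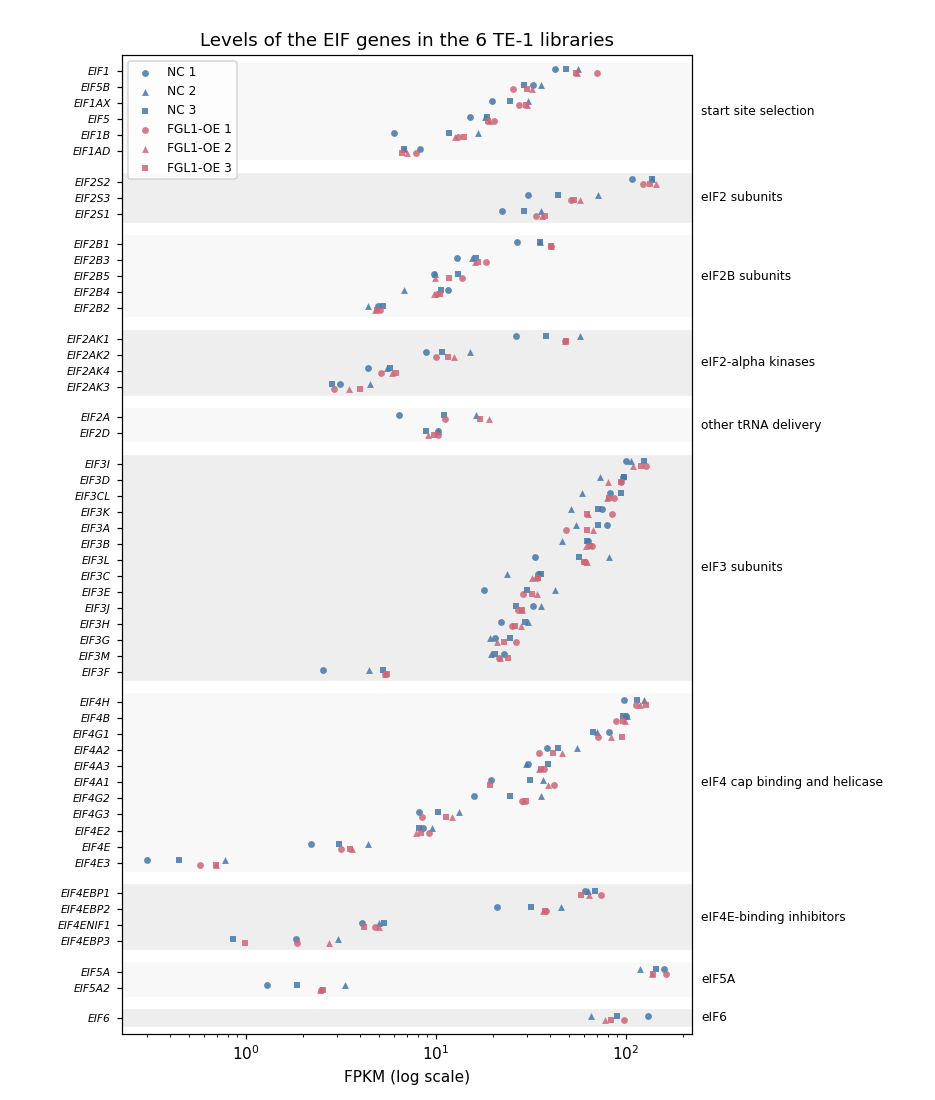
FPKM on a log axis of each of the 52 EIF genes in the 6 libraries, with NC in blue and FGL1-OE in red and replicates 1, 2 and 3 as circles, triangles and squares, grouped by role and ordered by mean. In 25 of the 52 genes all FGL1-OE points lie inside the range of the NC points, as for EIF2S3, whose NC points run from 30.6 to 71.7 FPKM.

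The first comparison asked whether the mRNA of any initiation factor differed between FGL1-OE and NC cells. All 52 genes passed the filter on low values (0.5 FPKM or more on average). Of these, 0 were raised and 0 were lowered at an unadjusted p under 0.05 with limma, beside 1.21% of all genes raised and 0.807% lowered. The ordinary linear model also called 0 in either direction. After adjustment over all genes 0 of 52 had p under 0.05 (background 0.00832%), and the smallest adjusted p was 1.00. The differences were small, between -0.20 for EIF3A and 0.50 for EIF2A on the log2(FPKM + 1) scale, with a median SE of 0.18. For 50 of the 52 genes the 95% interval of the difference lay within a halving and a doubling of FPKM + 1. In genes of low level the same interval spans a larger change of FPKM itself. The intervals of EIF2A and EIF1B reached past a doubling of FPKM + 1.

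The log2 difference was above 0 in 39 of 52 EIF genes (75%), beside 53.7% of all genes, and the median was 0.10 beside 0.02 over all genes. Leaving out NC 1 gave a median of 0.02 beside -0.009 over all genes, and leaving out NC 2 gave 0.14 beside 0.036 over all genes. In 3 genes, EIF2B1, EIF3F and EIF5, each FGL1-OE library lay above each NC library (5.77% of the EIF genes, all raised), beside 7.15% of all genes whose groups did not overlap, 4.09% raised and 3.06% lowered. After scaling to a common sum the genes without overlap were 2, EIF1 and EIF2B1, and after quantile normalization they were 3, EIF2B1, EIF3B and EIF3F. The summed level of all 52 genes was 1872, 2019 and 2036 FPKM in the NC libraries and 2101, 2065 and 2071 FPKM in the FGL1-OE libraries. The groups did not overlap in this sum, with a log2 difference of 0.07 and an exact two-sided permutation p of 0.1, the smallest that 3 against 3 libraries can give. As a share of the summed FPKM of all listed genes the groups overlapped, with NC 3 at 0.959% and FGL1-OE 1 at 0.939%, and they overlapped in the transcript table (exact permutation p = 0.4). Leaving out 1 library moved the difference between 0.036 without NC 1 and 0.096 without NC 3.

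**Figure D2:**
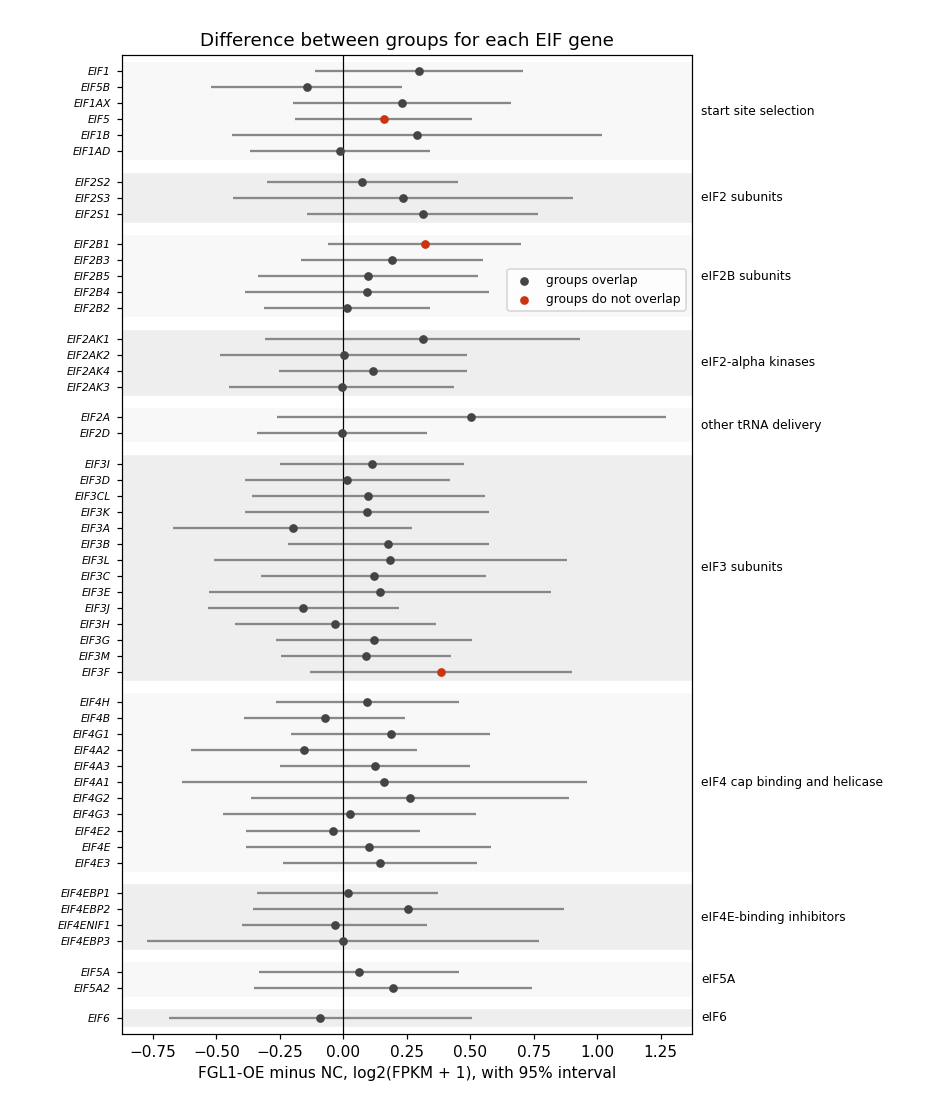
Difference of each EIF gene between FGL1-OE and NC on the log2(FPKM + 1) scale (points) with its 95% interval from limma (bars), grouped by role and ordered by mean level. All 52 intervals include 0, and the 3 genes in red (EIF2B1, EIF3F and EIF5) are those whose groups did not overlap.

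The ternary complex genes were studied first by role. eIF2 consists of an alpha, a beta and a gamma subunit. EIF2S1, the alpha subunit that stress kinases phosphorylate, had 22.1, 35.9 and 29.1 FPKM in NC 1, NC 2 and NC 3 and 33.6, 36.0 and 37.3 FPKM in FGL1-OE 1, FGL1-OE 2 and FGL1-OE 3. Only NC 2 among the NC libraries reached the FGL1-OE range. The difference was 0.31 ± 0.20 (SE; limma, unadjusted p = 0.152, adjusted p = 1.00). EIF2S2, the beta subunit and the most abundant EIF2 gene, had 108, 137 and 137 FPKM in the NC libraries and 123, 144 and 134 FPKM in the FGL1-OE libraries. Its groups overlapped and differed by 0.08 ± 0.16, with a 95% interval of -0.30 to 0.45. EIF2S3, the gamma subunit that binds GTP and the tRNA, ran from 30.6 FPKM in NC 1 to 71.7 FPKM in NC 2, and its 3 FGL1-OE values, 51.6, 57.3 and 53.5 FPKM, lay inside that range. EIF2S2 exceeded EIF2S1 in every library by a ratio of 3.58 to 4.88. In the summed level of the 3 subunits the groups overlapped, at 161, 244 and 209.7 FPKM in the NC libraries and 209, 237 and 224 FPKM in the FGL1-OE libraries (exact permutation p = 0.7). EIF2A and EIF2D can deliver tRNA to the ribosome without eIF2. EIF2A, which had the most positive difference of the family, had 6.43, 16.3 and 11.0 FPKM in NC 1, NC 2 and NC 3 and 11.2, 19.0 and 17.1 FPKM in FGL1-OE 1, FGL1-OE 2 and FGL1-OE 3. NC 1 was lowest, and NC 2 stood above FGL1-OE 1, so the groups overlapped. The difference was 0.50 ± 0.33 with an interval of -0.26 to 1.27 (limma, unadjusted p = 0.166, adjusted p = 1.00), and was 0.18 without NC 1 and 0.79 without NC 2. EIF2D differed by -0.01 ± 0.14, from 9.79 ± 0.793 FPKM in NC and 9.74 ± 0.591 FPKM in FGL1-OE (SD, n = 3 each).

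The exchange factor eIF2B reloads eIF2 with GTP. All 5 of its subunit genes had a log2 difference above 0, from 0.01 for EIF2B2 to 0.32 for EIF2B1, and none passed the test. This stands beside 75% of the EIF genes and 53.7% of all genes above 0. Without NC 2, EIF2B2 (-0.04) and EIF2B4 (-0.12) turned negative, while EIF2B1, EIF2B3 and EIF2B5 stayed above 0. EIF2B1, the alpha subunit that senses phosphorylated eIF2, had 26.5, 35.5 and 35.2 FPKM in NC 1, NC 2 and NC 3 and 40.5, 40.3 and 40.2 FPKM in FGL1-OE 1, FGL1-OE 2 and FGL1-OE 3. The 3 FGL1-OE values were nearly equal and lay above all NC values. The difference was 0.32 ± 0.16 with an interval of -0.06 to 0.70, and its unadjusted p of 0.0874 was the smallest of the family (limma, adjusted p = 1.00). EIF2B5, the catalytic subunit, had 9.82, 9.89 and 13.1 FPKM in the NC libraries and 13.8, 9.82 and 11.7 FPKM in the FGL1-OE libraries in the gene table and overlapped between groups. Summed over the 5 subunits, the level was 65.8, 72.0 and 80.5 FPKM in the NC libraries and 87.9, 80.8 and 84.1 FPKM in the FGL1-OE libraries. Each FGL1-OE library was higher than each NC library in this sum, with a log2 difference of 0.22 (exact permutation p = 0.1, the smallest possible). After scaling to a common sum NC 3 lay just above FGL1-OE 2 (379 and 378 TPM) and p was 0.2. In the transcript table the groups again did not overlap, at 108, 116 and 130 FPKM in the NC libraries and 148, 135 and 144 FPKM in the FGL1-OE libraries (exact permutation p = 0.1).

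The 4 kinases that phosphorylate eIF2-alpha respond to different stresses. EIF2AK1 (HRI), which responds to heme shortage and mitochondrial stress, was the most abundant kinase and had 26.2, 57.5 and 38.0 FPKM in NC 1, NC 2 and NC 3 and 48.0, 47.9 and 48.6 FPKM in FGL1-OE 1, FGL1-OE 2 and FGL1-OE 3. The 3 FGL1-OE libraries were nearly equal and lay between NC 3 and NC 2. Its difference was 0.31 ± 0.27 (limma, unadjusted p = 0.276, adjusted p = 1.00), which was 0.042 without NC 1 and 0.59 without NC 2. EIF2AK2 (PKR), the sensor of double-stranded RNA, had 8.82, 15.1 and 10.7 FPKM in the NC libraries and 9.99, 12.4 and 11.6 FPKM in the FGL1-OE libraries. Its groups overlapped, and the difference of 0.00087 changed sign under TPM scaling, quantile normalization and the omission of single libraries. EIF2AK3 (PERK), the sensor of unfolded protein in the endoplasmic reticulum, had 3.14, 4.52 and 2.84 FPKM in the NC libraries and 2.90, 3.47 and 3.98 FPKM in the FGL1-OE libraries, and EIF2AK4 (GCN2), the sensor of amino acid shortage, had 4.40, 5.50 and 5.76 FPKM in the NC libraries and 5.12, 5.86 and 6.19 FPKM in the FGL1-OE libraries. Both overlapped between groups, with differences of -0.01 ± 0.19 and 0.12 ± 0.16. The sum of the kinases followed EIF2AK1, with NC from 42.6 to 82.6 FPKM and FGL1-OE from 66.0 to 70.3 FPKM.

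The genes grouped here under scanning and start site selection had differences of either sign (4 of 6 above 0). EIF1AD was counted among them, and its part in initiation was not tested. EIF1, which guards the choice of the start codon and was the most abundant EIF1 gene, had 42.1, 55.8 and 48.1 FPKM in NC 1, NC 2 and NC 3 and 70.1, 55.4 and 54.9 FPKM in FGL1-OE 1, FGL1-OE 2 and FGL1-OE 3. FGL1-OE 1 stood highest and the other two FGL1-OE libraries lay just below NC 2. The difference was 0.30 ± 0.18 with an interval of -0.11 to 0.71 (limma, unadjusted p = 0.131, adjusted p = 1.00). EIF5, the factor that triggers GTP hydrolysis by eIF2, had 15.1, 18.1 and 18.7 FPKM in the NC libraries and 20.2, 19.1 and 18.7 FPKM in the FGL1-OE libraries. Its groups did not overlap, although NC 3 and FGL1-OE 3 were nearly equal, and they overlapped after scaling to a common sum or quantile normalization. EIF5B, the GTPase of subunit joining, had one of the 5 most negative differences, with 32.4, 35.9 and 28.9 FPKM in the NC libraries and 25.5, 31.8 and 30.3 FPKM in the FGL1-OE libraries, a difference of -0.14 ± 0.16 and overlapping groups. EIF1AX, EIF1B and EIF1AD had differences of 0.23 ± 0.18, 0.29 ± 0.31 and -0.01 ± 0.15. The summed EIF1 genes overlapped between groups as FPKM. They did not overlap after scaling to a common sum or in the transcript table (exact permutation p = 0.1 each, the smallest possible). The sum of all 6 start site genes overlapped as FPKM and after that scaling, but not in the transcript table (exact permutation p = 0.1).

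eIF3 is the largest initiation complex, and its subunit genes did not have equal mRNA levels. EIF3I, a WD-repeat subunit, was the most abundant in the gene table at 99.6, 106 and 124 FPKM in NC 1, NC 2 and NC 3 and 127, 109 and 119.5 FPKM in FGL1-OE 1, FGL1-OE 2 and FGL1-OE 3. EIF3F, a subunit of the MPN-domain pair, was the least abundant at 2.55, 4.46 and 5.23 FPKM in NC 1, NC 2 and NC 3 and 5.42, 5.39 and 5.55 FPKM in FGL1-OE 1, FGL1-OE 2 and FGL1-OE 3. EIF3I exceeded EIF3F by a ratio between 20.2 and 39.1 in a library. In the transcript table this ratio ran from 5.12 to 30.4, and EIF3K (209.8 FPKM on average), EIF3D (199 FPKM) and EIF3B (179.7 FPKM) lay above EIF3I (132 FPKM). EIF3F was higher in each FGL1-OE library than in each NC library, though not after scaling to a common sum, with a difference of 0.38 ± 0.22 on the log2(FPKM + 1) scale with an interval of -0.13 to 0.90 (limma, unadjusted p = 0.124, adjusted p = 1.00). Of the 31-base words of transcript EIF3F-201, 58.4% also occur in another annotated gene, mostly EIF3FP3, so the level of EIF3F is uncertain. EIF3A, the largest subunit and the backbone of the complex, had the most negative difference of the family, with 79.3, 54.8 and 70.8 FPKM in NC 1, NC 2 and NC 3 and 48.3, 67.4 and 62.2 FPKM in FGL1-OE 1, FGL1-OE 2 and FGL1-OE 3. FGL1-OE 1 was lowest, and the other two FGL1-OE libraries lay among the NC values. The difference was -0.20 ± 0.20 (limma, unadjusted p = 0.355, adjusted p = 1.00), which was -0.061 without FGL1-OE 1 and -0.35 without NC 2. EIF3J, a loosely bound subunit, had 32.6, 35.7 and 26.3 FPKM in the NC libraries and 27.1, 28.4 and 28.4 FPKM in the FGL1-OE libraries and a difference of -0.16 ± 0.16. Of the 14 genes, 11 had a difference above 0 and 3 below it, and the sum differed by 0.05 on the log2 scale (exact permutation p = 0.6).

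EIF3C and EIF3CL encode the same eIF3 subunit from a pair of near-identical copies on chromosome 16, at chr16:28699879-28747051 and chr16:28390900-28415200 (GRCh37). EIF3CL was given 82.3, 58.9 and 94.2 FPKM in the NC libraries and 86.5, 79.3 and 81.9 FPKM in the FGL1-OE libraries and EIF3C 34.5, 23.5 and 35.8 FPKM in the NC libraries and 33.8, 32.2 and 34.5 FPKM in the FGL1-OE libraries, and their ratio stayed between 2.37 and 2.63 in all 6 libraries of the gene table and between 1.05 and 1.15 in the transcript table. Of the 31-base words of EIF3CL-201, 99.4% occur in EIF3C as well, so the split of the reads between the copies is uncertain. Over the whole coding sequence the transcripts EIF3CL-201 (2745 bases) and EIF3C-201 (2742 bases) matched over the first 884 and the last 1858 bases, and EIF3CL-201 holds 1 further triplet in a run of GAG triplets. The stretches around it, at coding positions 855 to 917 of EIF3CL-201 and 855 to 914 of EIF3C-201 (minus strand for EIF3CL and plus strand for EIF3C, transcript sequence from GENCODE v29), are given with the 3 bases that differ in capitals.
EIF3CL-201: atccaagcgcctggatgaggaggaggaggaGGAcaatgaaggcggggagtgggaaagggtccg
EIF3C-201: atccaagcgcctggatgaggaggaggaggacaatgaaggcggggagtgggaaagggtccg
Only words that span this triplet could separate the coding sequences of these transcripts.

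The eIF4 genes hold the cap-binding machinery. EIF4E, the cap-binding protein, was low in mRNA, with 2.21, 4.39 and 3.08 FPKM in NC 1, NC 2 and NC 3 and 3.17, 3.61 and 3.51 FPKM in FGL1-OE 1, FGL1-OE 2 and FGL1-OE 3. The FGL1-OE values lay inside the NC range, and the difference was 0.10 ± 0.21 with an interval of -0.38 to 0.58. Of the 31-base words of EIF4E-204, its most abundant transcript by group mean, 62.1% also occur in another annotated gene, mostly EIF4EP2. The level of EIF4E is therefore uncertain. EIF4G1, the scaffold that joins eIF4E to the helicase and to eIF3, had 81.4, 70.1 and 66.9 FPKM in the NC libraries and 71.6, 83.0 and 95.2 FPKM in the FGL1-OE libraries. FGL1-OE 3 was highest and FGL1-OE 1 lay among the NC values, with a difference of 0.19 ± 0.17 (limma, unadjusted p = 0.301, adjusted p = 1.00). EIF4H, a cofactor of the helicase and the most abundant EIF4 gene of the gene table (EIF4B and EIF4G1 exceeded it in the transcript table, at 177 and 160 against 144 FPKM on average), had 98.1, 125 and 114 FPKM in the NC libraries and 113, 119 and 127 FPKM in the FGL1-OE libraries. Its groups overlapped, with a difference of 0.09 ± 0.16. Of the 31-base words of EIF4B-201, 37.5% also occur in another annotated gene, mostly EIF4BP6, and of those of EIF4H-202 19.5%. The order of EIF4B and EIF4H is therefore uncertain. EIF4A2, a helicase paralogue, had 38.4, 55.1 and 43.8 FPKM in the NC libraries and 34.7, 46.3 and 41.4 FPKM in the FGL1-OE libraries, which overlapped, and a difference of -0.16 ± 0.19. With its listed transcripts added the difference was 0.27 ± 0.58. EIF4A1, its paralogue, had 19.4, 36.5 and 31.3 FPKM in the NC libraries and 41.9, 39.0 and 19.2 FPKM in the FGL1-OE libraries, and FGL1-OE 3 was at the level of NC 1. All 31-base words of EIF4A1-201 also occur in another annotated gene, 95.1% of them in AC016876.2, so its level is uncertain. The ratio of EIF4A2 to EIF4A1 ran from 0.828 to 2.16 in the gene table and from 0.0798 to 0.614 in the transcript table. Their order is therefore uncertain. EIF4G2 (DAP5), which supports cap-independent initiation, ran from 15.9 FPKM in NC 1 to 35.5 FPKM in NC 2, with FGL1-OE at 28.5 to 29.6 FPKM. The sum of the 11 genes grouped here as cap binding and helicase, EIF4A3 included, differed by 0.06 on the log2 scale (exact permutation p = 0.7). The part of EIF4A3 in cap binding was not tested.

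EIF4EBP1 and EIF4EBP2, inhibitors of eIF4E, had higher mRNA levels than EIF4E in every library. EIF4EBP1, the best known target of mTORC1 among them, had 61.1, 62.9 and 68.3 FPKM in NC 1, NC 2 and NC 3 and 73.5, 63.7 and 58.0 FPKM in FGL1-OE 1, FGL1-OE 2 and FGL1-OE 3. The groups overlapped and the difference was 0.02 ± 0.15 with an interval of -0.34 to 0.37. EIF4EBP1 exceeded EIF4E by a ratio of 27.7, 14.3 and 22.2 in NC 1, NC 2 and NC 3 and of 23.2, 17.6 and 16.5 in FGL1-OE 1, FGL1-OE 2 and FGL1-OE 3 (exact permutation p = 0.8), and of 5.76 to 13.1 in the transcript table. These ratios are as uncertain as the level of EIF4E. EIF4EBP2 had 20.9, 45.4 and 31.5 FPKM in the NC libraries and 37.9, 36.5 and 37.4 FPKM in the FGL1-OE libraries, with the FGL1-OE values between NC 3 and NC 2 and a difference of 0.26 ± 0.26. EIF4EBP3 and EIF4ENIF1 (4E-T), which carries eIF4E into the nucleus, were low, with means of 1.88 and 4.74 FPKM over the 6 libraries. Of the words of EIF4EBP3-201, 72.6% also occur in ANKHD1-EIF4EBP3, so the level of EIF4EBP3 is uncertain.

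Among the factors of the large subunit, EIF5A had 159, 119 and 144 FPKM in NC 1, NC 2 and NC 3 and 162, 138 and 138 FPKM in FGL1-OE 1, FGL1-OE 2 and FGL1-OE 3. The groups overlapped, with a difference of 0.06 ± 0.17. Its paralogue EIF5A2 was lower by a ratio of 35.6 to 122 in a library (74.6 to 272 in the transcript table) and had 1.30, 3.33 and 1.85 FPKM in the NC libraries and 2.47, 2.46 and 2.54 FPKM in the FGL1-OE libraries. EIF6, which keeps the large subunit from joining too early, had 130.4, 65.1 and 89.9 FPKM in NC 1, NC 2 and NC 3 and 97.7, 77.8 and 83.0 FPKM in FGL1-OE 1, FGL1-OE 2 and FGL1-OE 3. NC 1 and NC 2 held the highest and the lowest value and all FGL1-OE values lay between them, with a difference of -0.09 ± 0.26 (limma, unadjusted p = 0.732, adjusted p = 1.00).

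The spread between replicates of the EIF genes was wider in NC. On the log2(FPKM + 1) scale the median SD of the 52 genes was 0.25 for the NC replicates and 0.09 for the FGL1-OE replicates, beside 0.31 and 0.12 over all genes tested, and it was larger in NC for 46 of the 52 genes (88.5%, beside 84.1% of all genes). NC 1 was the lowest of the 6 libraries for 27 EIF genes (51.9%, beside 41.3% of all genes) and NC 2 the highest for 21 (40.4%, beside 35.9%). In 25 genes (48.1%, beside 57.0% of all genes) the 3 FGL1-OE values lay inside the NC range. The NC 2 minus NC 1 difference reached 1.32 for EIF1B, 1.27 for EIF3L, 1.22 for EIF2A and 1.20 for EIF2S3, and -0.99 for EIF6 and -0.70 for EIF2B4. Across the 52 genes this difference went down with the GC content of the gene's most abundant transcript, with a Spearman's rho of -0.57 and a Pearson's r of -0.54, beside a rho of -0.79 over 11776 genes. These points share the same 2 libraries, so the values are a description. The 26 EIF genes of lower GC content had a median NC 2 minus NC 1 difference of 0.45 and the other 26 of 0.0039. The part of GC content in the comparison of FGL1-OE with NC was not tested.

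**Figure D3:**
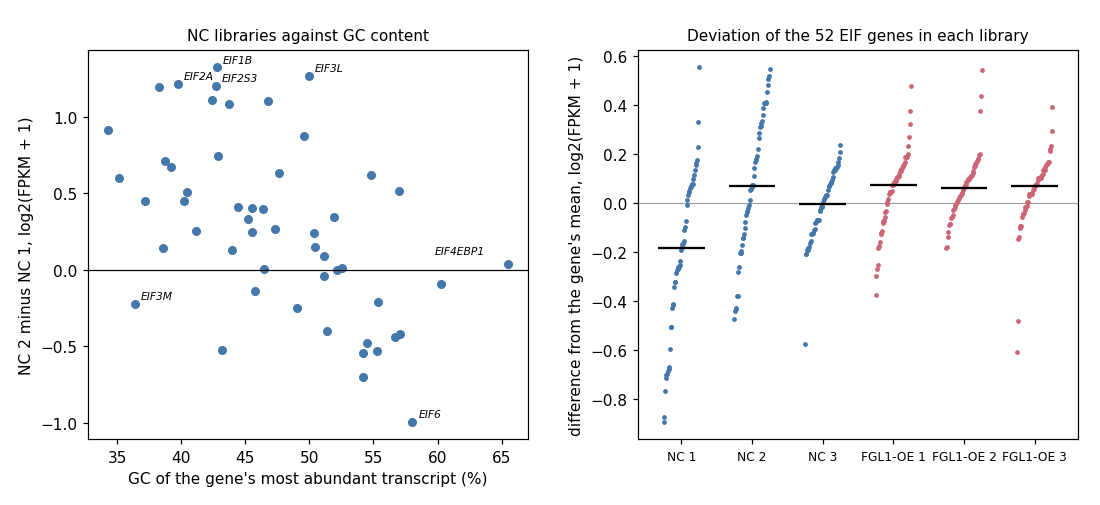
Left, NC 2 minus NC 1 on the log2(FPKM + 1) scale against the GC content in percent of the most abundant transcript, 1 point per EIF gene, with the highest value at EIF1B (1.32) and the lowest at EIF6 (-0.99). Right, deviation of each EIF gene from its mean over the 6 libraries, 1 point per gene with the median as a bar, which is -0.18 in NC 1 and between -0.006 and 0.08 in the other libraries.

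The count of genes at the unadjusted threshold depended on 1 NC library. Without NC 2, 11 EIF genes were raised at an unadjusted p under 0.05 (21.2%, beside 11.2% of all genes raised and 10.6% lowered) and 0 were lowered, and 0 passed after adjustment, with a smallest adjusted p of 0.194 (limma, background 0.0583%). These were EIF1, EIF1AX, EIF1B, EIF2A, EIF2AK1, EIF2B1, EIF2S1, EIF2S3, EIF4EBP2, EIF4G2 and EIF5A2, chosen here after their values were seen. NC 1 was the lowest of the 6 libraries for all 11. Groups without overlap numbered 19 EIF genes without NC 2 (36.5%, beside 42.8% of all genes). Without NC 1, 0 EIF genes were raised and 0 lowered.

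The second comparison asked whether single transcripts differed. Of the 194 listed EIF transcripts 183 passed the filter, and 13 genes had 1 listed transcript and 39 had more, up to 13. After adjustment over all transcripts 0 of 183 passed (limma, smallest adjusted p = 1.00, background 0.0165%). At an unadjusted p under 0.05, 9 transcripts (4.92%, beside 3.53% of all transcripts) were called. With a change of over 2-fold in FPKM + 1 in addition, 3 were raised (EIF2B5-201, EIF3F-201 and EIF3H-201, 1.64%, beside 1.27%) and 4 were lowered (EIF2D-203, EIF2S1-202, EIF4G1-229 and EIF5A-206, 2.19%, beside 0.973%). The groups did not overlap for 15 transcripts (8.2%, beside 8.22%). The median SE of 0.38 was larger than that of the genes, and for 65 of the 183 the 95% interval lay within a halving and a doubling of FPKM + 1.

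On the same log2 scale, replicate SDs of the 183 transcripts had a median of 0.54 for NC and 0.31 for FGL1-OE, above the 0.25 and 0.09 of the genes. In 13 of the 39 genes with several listed transcripts (33.3%, beside 41.6% of 8054 genes) the same transcript was the most abundant in all 6 libraries, among them EIF2B1, EIF3A, EIF3B, EIF4A3 and EIF4H. All 3 NC libraries shared a most abundant transcript in 17 genes (43.6%, beside 53.2% of all genes) and all 3 FGL1-OE libraries in 24 (61.5%, beside 60.7%). The most abundant transcript by group mean differed between groups in 7 genes (17.9%, beside 22% of all genes), EIF3D, EIF3E, EIF3H, EIF4A1, EIF4G1, EIF5A and EIF6. In 0 genes (beside 0.521% of all genes) did each library of a group share 1 transcript and the groups differ. EIF3E-201, named after its values were seen, had 47.8, 129.8 and 0.217 FPKM in NC 1, NC 2 and NC 3 and 66.0, 0.367 and 9.44 FPKM in FGL1-OE 1, FGL1-OE 2 and FGL1-OE 3, although the gene value of EIF3E did not drop with it. High and low values of EIF3E-201 occurred in both groups.

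**Figure D4:**
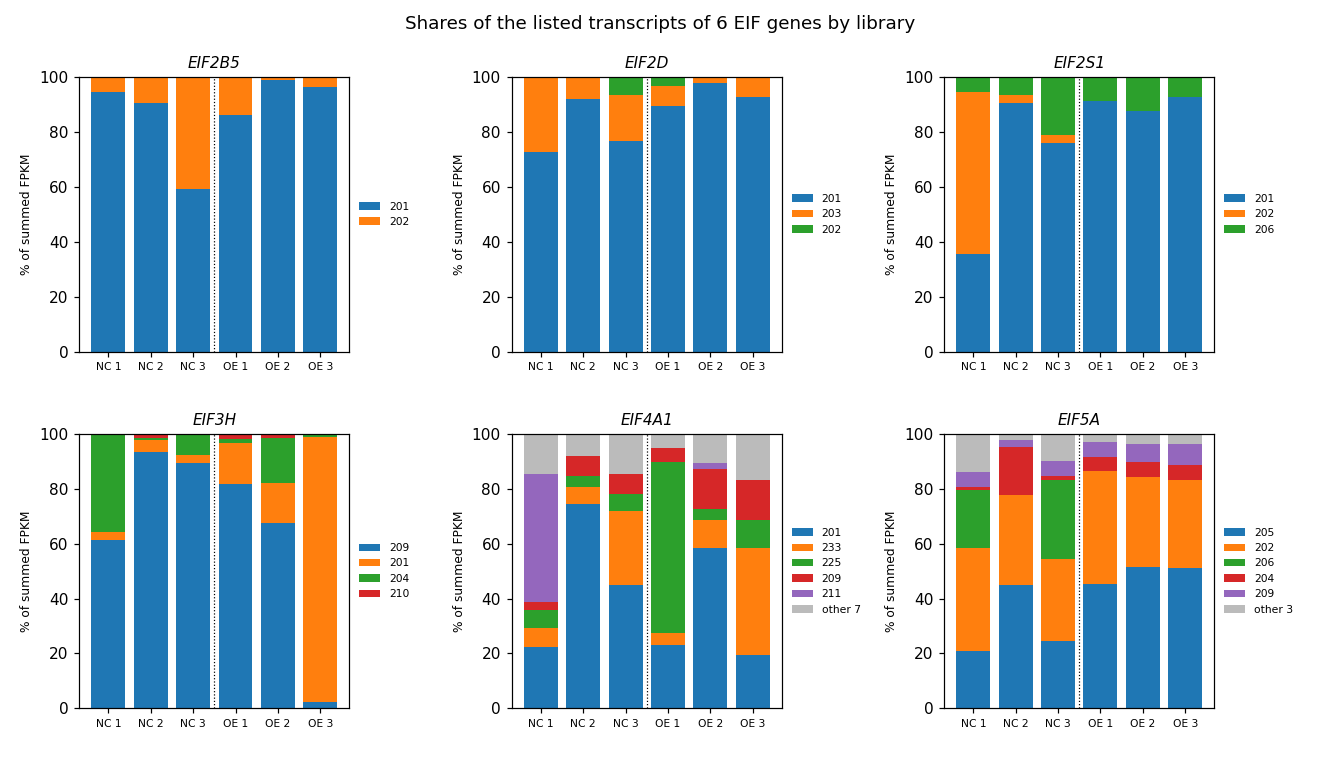
Share in percent of each listed transcript in the summed FPKM of its gene, as stacked bars for the 6 libraries (NC left and FGL1-OE right of the dotted line), for the 6 genes that hold a transcript called at unadjusted p without overlap. The 5 transcripts with the highest mean share are coloured and the rest are grey, and EIF3H in FGL1-OE 3 shows 1 library apart, with 96.5% in EIF3H-201.

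EIF5A held a transcript raised at the unadjusted threshold. EIF5A-205 had 70.9, 112 and 75.9 FPKM in NC 1, NC 2 and NC 3 and 156, 153 and 154 FPKM in FGL1-OE 1, FGL1-OE 2 and FGL1-OE 3. The FGL1-OE libraries were nearly equal and lay above all NC libraries. The difference was 0.86 ± 0.26 (limma, unadjusted p = 0.0155, adjusted p = 1.00). Its share of the summed FPKM of the 8 listed EIF5A transcripts was 20.9, 45.0 and 24.6% in NC 1, NC 2 and NC 3 and 45.5, 51.5 and 51.2% in FGL1-OE 1, FGL1-OE 2 and FGL1-OE 3 (exact permutation p = 0.1, the smallest possible). EIF5A-202, the most abundant in NC, had 127, 81.6 and 92.1 FPKM in the NC libraries and 141, 97.6 and 96.2 FPKM in the FGL1-OE libraries and overlapped between groups. EIF5A-206, named after its values were seen, was 71.6, 0 and 89.0 FPKM in NC 1, NC 2 and NC 3 and was listed at 0 in all FGL1-OE libraries. NC 2 was the only NC library at 0, so leaving it out removed the overlap of the groups. Without NC 2 EIF5A-206 was the 1 EIF transcript with an adjusted p under 0.05, a value that rests on that omission (limma, adjusted p = 0.00844, background 0.0923%). In that setting 6 EIF transcripts were raised at unadjusted p with over 2-fold (3.28%, beside 2.33%) and 9 were lowered (4.92%, beside 2.62%).

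The protein coded by these transcripts is the same. Of the 8 listed EIF5A transcripts 5 (EIF5A-202, EIF5A-204, EIF5A-205, EIF5A-206 and EIF5A-208) have an identical coding sequence of 465 bases, and EIF5A-206 differs from EIF5A-205 by 95 bases ahead of the start codon. The first 180 bases of the shared coding sequence (GENCODE v29, gene at chr17:7210318-7215782 on GRCh37, plus strand) are printed because the groups overlapped once the transcripts that carry it were added. The start codon and the codon of the lysine that becomes hypusine are in capitals.
EIF5A-205: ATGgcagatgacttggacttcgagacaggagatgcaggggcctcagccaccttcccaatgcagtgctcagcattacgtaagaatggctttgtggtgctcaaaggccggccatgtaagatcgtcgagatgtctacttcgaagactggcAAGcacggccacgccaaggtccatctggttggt
EIF5A-205 and EIF5A-206 added were 143, 112 and 165 FPKM in the NC libraries and 156, 153 and 154 FPKM in the FGL1-OE libraries (exact permutation p = 0.4). All 5 transcripts added were 313, 238 and 287 FPKM in the NC libraries and 319.7, 271 and 271 FPKM in the FGL1-OE libraries, a difference of 0.05 ± 0.23 with overlapping groups. Between 44.9% and 53.6% of the words of these transcripts also occur in another gene, mostly EIF5AL1, so their split from that copy is uncertain.

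**Figure D5:**
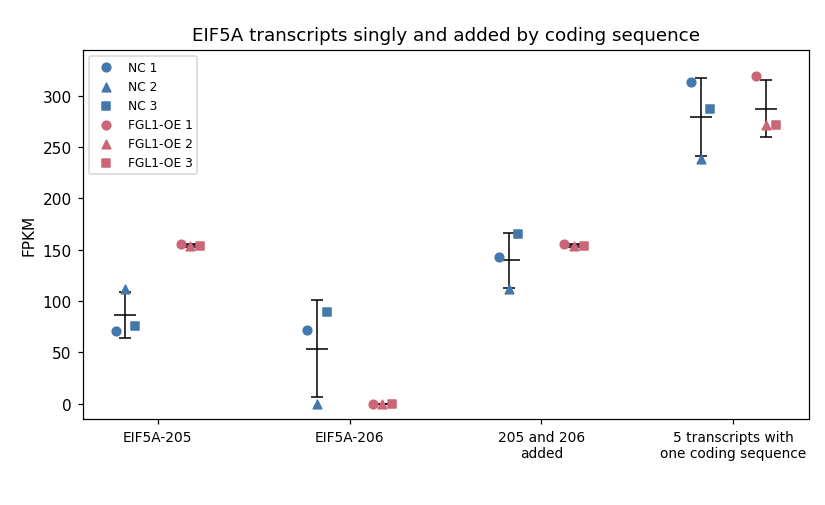
FPKM of EIF5A-205, EIF5A-206, both added, and the 5 transcripts with the shared coding sequence added, in NC (blue) and FGL1-OE (red), with replicates as symbols and the mean ± SD as bars (n = 3). The groups are apart for EIF5A-205 alone (NC up to 112 FPKM, FGL1-OE from 153 FPKM) and overlap in both sums.

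The other transcripts raised at the unadjusted threshold without overlap were EIF2B5-201 and EIF3H-201. EIF2B5-201, the full-length transcript of the catalytic eIF2B subunit, had 6.21, 7.44 and 4.80 FPKM in NC 1, NC 2 and NC 3 and 15.9, 11.4 and 13.1 FPKM in FGL1-OE 1, FGL1-OE 2 and FGL1-OE 3. Each FGL1-OE library was above each NC library, with a difference of 1.02 ± 0.26 (limma, unadjusted p = 0.00729, adjusted p = 1.00). Its share of the listed EIF2B5 transcripts was 94.6, 90.5 and 59.0% in NC 1, NC 2 and NC 3 and 86.3, 98.9 and 96.5% in FGL1-OE 1, FGL1-OE 2 and FGL1-OE 3, which overlapped (exact permutation p = 0.4). The listed EIF2B5 transcripts added differed by 0.83 ± 0.22 (limma, unadjusted p = 0.00678, adjusted p = 1.00), whereas the gene table gave EIF2B5 a difference of 0.10 ± 0.19. With the transcripts of each gene added, EIF2B5 and EIF3F were the 2 of 52 genes raised at unadjusted p (3.85%, beside 1.53%), and 0 passed after adjustment (background 0.0084%). EIF3H-201 was 1.26, 2.05 and 1.45 FPKM in the NC libraries and 6.57, 7.15 and 77.2 FPKM in the FGL1-OE libraries. FGL1-OE 3 stood far above the rest, and in that library EIF3H-209, the most abundant in the other libraries, was 1.78 FPKM. The difference of EIF3H-201 was 2.72 ± 0.91 (limma, unadjusted p = 0.0232, adjusted p = 1.00), while the EIF3H gene differed by -0.03 ± 0.17.

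Lowered at that threshold without overlap were EIF2S1-202, EIF2D-203 and EIF4A1-203. EIF2S1-202 had 12.3, 1.22 and 1.01 FPKM in NC 1, NC 2 and NC 3 and 0, 0.0216 and 0.0857 FPKM in FGL1-OE 1, FGL1-OE 2 and FGL1-OE 3, so NC 1 stood apart, with a difference of -1.91 ± 0.74 (limma, unadjusted p = 0.0390, adjusted p = 1.00). It has a coding sequence as long as that of EIF2S1-201, the most abundant transcript, at 948 bases, and EIF2S1-201 was lowest in NC 1 at 7.32 FPKM. Both have the same coding sequence, and added they differed by 0.35 ± 0.30. EIF4A1-203 had 4.49, 2.74 and 4.82 FPKM in the NC libraries and 1.80, 1.66 and 2.62 FPKM in the FGL1-OE libraries with a difference of -0.72 ± 0.28, and 97.8% of its words occur in another gene. Its share of the listed EIF4A1 transcripts overlapped between groups (exact permutation p = 0.5). EIF4A1-201, the most abundant by mean in NC, had 19.4, 54.0 and 31.2 FPKM in the NC libraries and 23.2, 25.1 and 7.39 FPKM in the FGL1-OE libraries, and EIF4A1-225, the most abundant by mean in FGL1-OE, owed its place to FGL1-OE 1, with 5.56, 3.04 and 4.43 FPKM in the NC libraries and 63.1, 1.64 and 3.89 FPKM in the FGL1-OE libraries.

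EIF2D-203 is a shorter annotated transcript of EIF2D. It had 11.6, 3.23 and 6.03 FPKM in NC 1, NC 2 and NC 3 and 3.04, 0.754 and 2.78 FPKM in FGL1-OE 1, FGL1-OE 2 and FGL1-OE 3. Each FGL1-OE library was below each NC library, by -1.27 ± 0.52 (limma, unadjusted p = 0.0484, adjusted p = 1.00). Its share of the listed EIF2D transcripts was 27.5, 8.19 and 16.6% in NC 1, NC 2 and NC 3 and 7.40, 2.24 and 7.20% in FGL1-OE 1, FGL1-OE 2 and FGL1-OE 3, also without overlap (exact permutation p = 0.1, the smallest possible). EIF2D-201, the most abundant form, had 30.7, 36.1 and 28.0 FPKM in the NC libraries and 36.7, 32.9 and 35.8 FPKM in the FGL1-OE libraries and overlapped between groups, with a difference of 0.15 ± 0.23. EIF2D lies at chr1:206744620-206785816 (GRCh37), and EIF2D-203 lacks 84 bases of the coding sequence of EIF2D-201. The coding stretches that hold the difference, positions 224 to 355 of EIF2D-201 and 224 to 271 of EIF2D-203 (minus strand, GENCODE v29), are given with the 84 bases in capitals.
EIF2D-201: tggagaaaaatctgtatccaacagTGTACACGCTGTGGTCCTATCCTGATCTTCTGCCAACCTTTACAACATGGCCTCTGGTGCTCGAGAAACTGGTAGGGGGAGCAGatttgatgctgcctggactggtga
EIF2D-203: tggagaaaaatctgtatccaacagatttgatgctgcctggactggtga
The annotated coding sequence of EIF2D-203 holds 812 bases, against 1755 bases in EIF2D-201, and runs to the last base of its 920-base transcript. No end of this coding sequence is annotated, so EIF2D-203 may be an incomplete model rather than a shorter form.

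Added by coding sequence over the whole table, 162 EIF coding sequences were tested, of which 3 were raised (1.85%, beside 1.12%) and 2 lowered (1.23%, beside 0.865%) at an unadjusted p under 0.05 with over 2-fold, and 0 passed after adjustment (limma, background 0.0184%), with 6 at unadjusted p alone (3.7%, beside 3.48%). The lowered ones were EIF2D-203 and EIF4G1-229, and EIF5A-206 and EIF2S1-202 left the count since each was added to transcripts of the same coding sequence. The annotated coding sequences of EIF2D-203 and EIF4G1-229 run to the last base of the transcript, so both may be incomplete models. EIF3F-201, whose groups overlapped and which was named after its values were seen, had 1.04, 0.455 and 16.9 FPKM in the NC libraries and 25.6, 17.9 and 16.0 FPKM in the FGL1-OE libraries. EIF4G1-229, also named after its values were seen, was 58.6, 25.3 and 0 FPKM in the NC libraries and listed at 0 in all FGL1-OE libraries, with NC 3 also at 0.

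Other genes of the translation pathway did not pass the test either. Of 36 genes of elongation, termination, initiation partners, signalling and hypusination, 35 were listed and tested. At an unadjusted p under 0.05, 0 were raised and 0 lowered, beside 1.21% and 0.807% of all genes (limma, 0 after adjustment). The median log2 difference was 0.05. The elongation factors, which include EEF1A1 and EEF2, had a median of -0.02 over 7 genes. The termination and recycling factors, which include ETF1 and ABCE1, had differences above 0 for all 6 genes, from 0.06 to 0.38, beside 53.7% of all genes above 0. NC 1 was the lowest library for each of them, and in all but GSPT1 the FGL1-OE values lay inside the NC range. The genes of mTORC1 and stress signalling ranged from -0.32 to 0.21 over 11 genes.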

How the data were processed

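RNA-seq of TE-1 cells was analysed for 3 NC and 3 FGL1-OE libraries, grouped by the genotype in the labels. The authors deposited FPKM values per library for protein-coding genes and transcripts. The submitters' processing notes name StringTie and GRCh37, and the aligner and the versions are not given in the sources used here. Both tables hold features that average about 0.5 FPKM or more in a group. Their columns of the authors' own comparison (fold changes, p-values and q-values) were not used, and the depth is unknown.

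The 12017 genes and 30330 transcripts that averaged 0.5 FPKM or more across all libraries entered limma (version 3.58.1, R 4.3.3) as log2(FPKM + 1), a scale that understates the change of low genes, with Benjamini-Hochberg adjustment over each whole table and a threshold of 0.05. Sums, ratios and shares had exact two-sided permutation tests, whose smallest p is 0.1. Differences are FGL1-OE minus NC. Halvings, doublings and 2-fold changes are those of FPKM + 1. Coordinates are those of the tables. Of the 194 EIF transcripts 193 matched GENCODE v29 by identifier (190 with the same version), which gave sequence, GC content and 31-base words. The code was tested on simulated data.

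Values with differences are given for FGL1, EIF genes at unadjusted p under 0.05, the 5 most positive and 5 most negative differences, the most abundant gene of each EIF number, and fixed regulators. For transcripts they are given for those at unadjusted p under 0.05 without overlap and the most abundant of their genes. Others are named for levels or a pattern. Members and lists were chosen with earlier results of these data known. Alternatives were another pseudocount, filter, scaling and variance model, a replicate block, each library left out, and sums of the transcript table. Sums by coding sequence were added after seeing the data.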

Additional observations from a re-analysis of the deposited data

How the results depend on the processing

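Of the values that answer a comparison, 110 of 120 under the other settings and 157 of 180 with 1 library left out kept their direction and stayed within 1.5 times their count. FGL1 stayed past the threshold throughout, and 0 EIF genes passed after adjustment in every setting run. The replicate block gave 1 raised EIF gene at unadjusted p (EIF2A) and sums of the transcript table gave 2 (EIF2B5 and EIF3F). EIF transcripts raised with over 2-fold numbered 1 with the ordinary linear model, and those lowered 1 with a pseudocount of 0.1, 2 with a mean of at least 1 FPKM, 2 after TPM scaling, 2 summed by coding sequence and 0 with the ordinary linear model. With transcripts summed per gene, the log2 difference of the summed EIF4 genes turned to -0.012 and that of the cap-binding and helicase genes to -0.023, and EIF2AK2 turned to -0.0042 after TPM scaling and to -0.030 after quantile normalization. The cause was not tested.

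With 1 library left out, EIF genes raised at unadjusted p ranged from 0 to 11 (0 to 21.2%, beside 0.682 to 11.2% of all genes), genes without overlap from 4 to 19 (7.69 to 36.5%, beside 10.5 to 42.8%, with fewer libraries in a group), transcripts raised with over 2-fold from 1 to 6 (0.546 to 3.28%, beside 1.26 to 2.33%), those lowered from 1 to 9 (0.546 to 4.92%, beside 0.956 to 2.62%), and transcripts past the adjusted threshold from 0 to 1, with each highest count without NC 2. The median EIF difference ranged from 0.02 to 0.15. Summed log2 differences ranged from -0.0044 to 0.14 for EIF4, -0.025 to 0.093 for EIF5, -0.34 to 0.16 for EIF6, -0.021 to 0.28 for the eIF2 subunits, -0.0031 to 0.47 for the eIF2-alpha kinases, -0.031 to 0.17 for the eIF4E-binding inhibitors and -0.045 to 0.15 for eIF5A. The share of EIF4A1-203 differed by -2.50 to 0.0261 percentage points. The log2 difference of each of the 22 genes given with differences by rule moved by over 1.5 times without at least 1 library. Single log2 differences ranged from 0.18 to 0.79 for EIF2A, 0.042 to 0.59 for EIF2AK1, 0.14 to 0.47 for EIF2S1, 0.15 to 0.55 for EIF3F, -0.35 to -0.061 for EIF3A, -0.16 to 0.20 for EIF2AK2, -0.11 to 0.15 for EIF2AK3, -0.037 to 0.13 for EIF2S2, -0.083 to 0.29 for EIF4E, -0.073 to 0.095 for EIF4EBP1, -0.020 to 0.52 for EIF4EBP2, -0.054 to 0.15 for EIF5A, -0.33 to 0.16 for EIF6, -0.54 to 1.76 for EIF4A1-225 and -0.024 to 0.34 for EIF5A-202.

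Replicate numbers were shared between groups, but same-numbered libraries did not deviate together in each pair (r = 0.35, 0.28 and -0.061 over 12017 genes, and NC 3 correlated best with FGL1-OE 1), so the block is given here only and changed no other count of EIF genes. With 3 libraries a group, wide NC spread and no read counts, small differences of a single factor were not detectable.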
